A study of Mus musculus with 20 samples.

Results

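The amino acid transporter genes described here are the rows of the deposited count table whose symbol belongs to the solute carrier families Slc1a, Slc3a, Slc7a, Slc36a and Slc38a, with Slc7a11 and Slc38a4 left out. The rule found 39 of 25208 genes, of which 37 are transporters or their subunits. The other 2, Slc7a6os and Slc36a1os, carry a transporter's name only as its neighbour on the opposite strand and are reported as such. Of the 39 genes, 31 passed a filter on low counts and were tested. They were 5 of 7 Slc1a, 2 of 2 Slc3a, 11 of 15 Slc7a, 3 of 5 Slc36a and 10 of 10 Slc38a genes. The 8 others had few or no reads. Slc7a15 reached at most 1.38 CPM (counts scaled to a common library size, here in a late 8-cell control), Slc36a2 0.438 CPM, Slc1a2 0.245 CPM, Slc7a10 0.220 CPM, Slc1a6 0.198 CPM and Slc7a13 0.163 CPM, and Slc7a12 and Slc36a1os had no count in any library.

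RNA was sequenced from mouse preimplantation embryos cultured from the zygote in KSOM, a medium for embryo culture, with libraries made by the Smart-seq2 protocol for very small inputs. Embryos labelled P300 siRNA, of genotype P300 knockdown, were compared with control embryos, of genotype WT, at 4 stages, the late 2-cell, the 4-cell, and the early and late 8-cell stage. The late 8-cell stage also included embryos labelled P300 siRNA I1394G and P300 siRNA NaCr, of genotypes P300 knockdown I1394G rescue and P300 knockdown NaCr rescue, so both carried the siRNA as well. The labels do not spell these names out, and I1394G is taken to mean a mutated p300, the lysine acyltransferase encoded by Ep300, and NaCr sodium crotonate. Each of the 10 groups held 2 libraries. What the control embryos received, how many embryos made a library and whether the libraries of a group came from separate cultures are not given in the sources used here, so p values measure the spread between libraries, which may be technical.

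Amino acid transporters of these families work in groups. Slc3a2, the heavy chain known as CD98 or 4F2hc, carries no amino acid itself but brings light chains of the Slc7 family to the plasma membrane, among them the large neutral amino acid exchangers Slc7a5 and Slc7a8 and the exchangers Slc7a6 and Slc7a7, which trade cationic for neutral amino acids. Slc3a1 does the same for Slc7a9. Slc7a1, Slc7a2 and Slc7a3 carry arginine and lysine without a heavy chain. Slc1a1, Slc1a2, Slc1a3, Slc1a6 and Slc1a7 are acidic amino acid transporters, and Slc1a4 and Slc1a5 carry small neutral amino acids such as alanine, serine and glutamine. The Slc38 family takes up glutamine and other neutral amino acids with sodium, and Slc38a9 sits on the lysosome, where it reports arginine to the growth kinase complex mTORC1. Slc36 proteins move small amino acids together with protons. In preimplantation embryos such carriers supply amino acids for protein synthesis and help to balance cell volume.

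Promoter sequences show the start sites of the members on which the results below turn most, the heavy chain Slc3a2 and the glutamate transporter Slc1a1, and the members that hold a CARE motif, the element through which ATF4 drives genes of amino acid shortage. RefSeq (GRCm38.p6) lists a promoter, 300 bases around a start site, for 29 of the 39 genes. The motif was searched as TGATGNAA on both strands and was present in 3.97% of all 32851 promoters listed. Among the members it was found for Slc1a4 and Slc7a7, and CRE, TGACGTCA, present in 1.79% of all promoters, was found for Slc38a6. Capitals mark the CARE matches, and the other letters are in lower case.
Slc3a2 (chr19:8713848-8714147, minus strand): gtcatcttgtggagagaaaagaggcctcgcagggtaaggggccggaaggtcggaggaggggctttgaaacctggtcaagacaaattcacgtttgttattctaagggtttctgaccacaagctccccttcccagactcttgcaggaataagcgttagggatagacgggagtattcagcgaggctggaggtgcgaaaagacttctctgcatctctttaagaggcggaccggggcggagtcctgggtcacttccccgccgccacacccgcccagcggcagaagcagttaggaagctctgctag
Slc1a1 (chr19:28834885-28835184, plus strand): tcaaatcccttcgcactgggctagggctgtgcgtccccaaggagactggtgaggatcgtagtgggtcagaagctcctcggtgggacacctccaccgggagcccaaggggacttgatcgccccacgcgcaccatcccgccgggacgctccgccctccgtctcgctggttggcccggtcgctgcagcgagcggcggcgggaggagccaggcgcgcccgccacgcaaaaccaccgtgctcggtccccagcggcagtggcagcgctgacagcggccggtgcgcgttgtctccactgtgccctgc
Slc1a4 (chr11:20332664-20332963, minus strand): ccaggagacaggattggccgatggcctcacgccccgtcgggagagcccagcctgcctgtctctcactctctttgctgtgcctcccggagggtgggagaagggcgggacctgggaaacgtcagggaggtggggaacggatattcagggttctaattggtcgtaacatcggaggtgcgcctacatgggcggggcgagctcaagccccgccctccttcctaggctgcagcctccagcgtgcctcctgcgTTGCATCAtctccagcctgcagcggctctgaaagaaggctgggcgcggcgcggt
Slc7a7 (chr14:54417895-54418194, minus strand): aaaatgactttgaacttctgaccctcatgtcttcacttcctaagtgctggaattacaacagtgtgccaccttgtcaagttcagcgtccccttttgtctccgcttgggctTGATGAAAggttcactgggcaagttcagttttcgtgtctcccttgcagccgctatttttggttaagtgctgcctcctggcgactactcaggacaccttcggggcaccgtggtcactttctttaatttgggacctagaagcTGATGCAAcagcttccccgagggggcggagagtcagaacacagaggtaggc
In Slc1a4 the match, TTGCATCA, lies on the strand opposite to the gene and begins at position -4 from the start site. In Slc7a7, for which 5 promoters are listed, the one shown holds TGATGAAA from position -141 and TGATGCAA from position -1. The Slc3a2 and Slc1a1 windows hold no match to these letters. They contain 15 and 32 CpG dinucleotides, against a median of 7 over all promoters, and G and C make up 56.0% and 70.3% of their bases, against a median of 52.7%.

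Total counts per library ranged from 3202332 (P300 siRNA late 8-cell, replicate 1) to 24785201 (I1394G late 8-cell, replicate 2). Ep300, the target of the siRNA, had 11.4 to 29.9 CPM in the siRNA libraries of the first 3 stages and 41.5 to 88.4 CPM in their controls. In the late 8-cell groups it had 16.2 and 13.2 CPM in the siRNA libraries and 22.0 and 15.2 CPM in the controls, so these values do not part the groups and directions there rest on the labels. I1394G libraries had 14.8 and 16.2 CPM, which overlap with the siRNA libraries, and NaCr libraries had 11.6 and 12.6 CPM. Whether Ep300 counts would include a p300 supplied to the embryos is not given in the sources used here. Of 8 markers of the preimplantation embryo, Tdgf1 was at 0 in all 8-cell libraries and Sox2 at or under 0.591 CPM in them, and the summed level of the 8 markers overlapped at the late 2-cell stage and was lower in siRNA embryos from the 4-cell stage on. Among late 8-cell embryos it was 1402 to 1420 CPM in I1394G embryos, 1553 to 1748 CPM in NaCr embryos, 735 to 808 CPM in siRNA embryos and 1665 to 1684 CPM in controls. Oocyte markers summed to between 10217 and 13050 CPM at the late 2-cell stage and to at most 152 CPM later. Of the other cell types, blood markers summed to at most 2.77 CPM and sperm markers to at most 3.35 CPM, and the 9 cumulus cell markers were carried by Amhr2, which had 20.4 to 70.5 CPM. Marker sums were 996 to 1092 CPM in siRNA embryos and 1640 to 1902 CPM in controls at the 4-cell stage, and 756 to 869 CPM against 1596 to 1614 CPM at the early 8-cell stage. Read at equal depth, siRNA libraries held counts for more genes than their controls from the 4-cell stage on (14302 and 14331 against 13640 and 13804 genes in 4-cell, 14733 and 14408 against 13968 and 13354 in early 8-cell and 15920 and 16841 against 14515 and 14365 in late 8-cell embryos). I1394G embryos held 15108 and 15035 and NaCr embryos 14684 and 14616. The part of these differences in the results below was not tested. In such bulk libraries fewer cells of a type and less RNA per cell cannot be told apart. One column of FPKM values (fragments per kilobase scaled to library size, used for levels per length), that of control early 8-cell replicate 2, did not match its own counts (r = 0.885 over 7134 genes, against at least 0.999 in the other 19 libraries), and it was left out of every FPKM level, so that this group has 1 library there.

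Per unit of length, a few members made up most of the transporter RNA, and which of them led changed with the stage. Late 2-cell controls held Slc3a2 at 79.8 ± 0.106 FPKM, Slc7a6os at 67.1 ± 0.849 FPKM, Slc1a1 at 34.0 ± 5.90 FPKM and Slc1a5 at 22.8 ± 6.65 FPKM (SD, n = 2). In 4-cell controls Slc1a1 led with 60.6 ± 7.16 FPKM, ahead of Slc3a2 with 34.4 ± 7.16 FPKM, Slc7a6 with 27.6 ± 7.53 FPKM and Slc7a6os with 27.2 ± 0.537 FPKM (SD, n = 2). The last 3 overlap in mean ± SD. Within each library Slc3a2 (29.4 and 39.5 FPKM) lay above Slc7a6 (22.2 and 32.9 FPKM) and Slc7a6os (27.6 and 26.8 FPKM). Slc7a6 and Slc7a6os changed order between the libraries. Slc1a1 also led in the early 8-cell control with a usable FPKM column, at 83.1 FPKM against 42.7 FPKM for Slc3a2. Late 8-cell controls held Slc1a1 at 119 ± 8.32 FPKM, Slc3a2 at 85.9 ± 5.70 FPKM, Slc7a6 at 33.3 ± 1.40 FPKM and Slc7a6os at 30.9 ± 0.764 FPKM (SD, n = 2). Between 12 and 21 of the 39 members reached 1 FPKM in a library, and the most were in the late 8-cell siRNA libraries, with 20 and 21, against 16 and 16 in the controls. The share of all genes at 1 FPKM was not counted. FPKM also lacks the TMM scaling that CPM has. Its factors were 1.18 and 1.21 in these siRNA libraries and 0.858 and 0.854 in the controls, so the same CPM gives a higher FPKM in the siRNA libraries.

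Among the steps between successive control stages, the one to the 4-cell stage held the most called transporters. Of the 31 members tested, 15 were called (7 higher and 8 lower at the 4-cell stage), against 61.2% of all genes (27.0% higher, 34.2% lower). Slc7a6 had 119 and 163 CPM at the 4-cell stage and 18.3 and 15.8 CPM at the late 2-cell stage, a log2 fold change of 3.05 ± 0.24 (SE, adjusted p = 6.5e-09, edgeR's quasi-likelihood test here and below). Slc1a1 had 241 and 264 CPM against 94.1 and 121 CPM (1.23 ± 0.27, adjusted p = 0.000806). In both genes the 4-cell libraries lay above both late 2-cell libraries. Slc38a2, a system A carrier of neutral amino acids, rose by 4.01, Slc7a7 by 2.69, Slc7a14, a lysosomal relative of the cationic carriers, by 1.98 and Slc38a6 by 1.38, all from levels under 4 CPM. Slc36a3 had 19 counts at the 4-cell stage and 1 count at the late 2-cell stage, a ratio of 14.0 with a counting interval of 2.22 to 581, and its call was lost without any 1 of the 4 libraries (fitted log2 fold changes of 2.89 to 6.05, which for such low counts depend on the prior count of the fit).

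The 8 members that fell at this step included carriers of small neutral and cationic amino acids and the heavy chain. Slc1a4 had 0 and 0.733 CPM at the 4-cell stage and 11.8 and 18.7 CPM at the late 2-cell stage (-5.08 ± 0.80, adjusted p = 2.6e-05). Slc7a2 had 3.61 and 4.58 CPM against 20.3 and 17.1 CPM (-2.18 ± 0.47, adjusted p = 0.000642), Slc38a8 had 4.13 and 7.88 CPM against 15.1 and 16.6 CPM (-1.39 ± 0.43, adjusted p = 0.00945), and the heavy chain Slc3a2 had 101 and 126 CPM against 199 and 200 CPM (-0.81 ± 0.20, adjusted p = 0.00176). Slc7a6os had 49.0 and 44.2 CPM against 85.9 and 87.8 CPM (-0.90 ± 0.21, adjusted p = 0.00153). None of these 5 genes had overlapping libraries. Slc7a1, the general arginine and lysine carrier, fell by 4.57 and Slc38a3 by 4.24, and Slc7a8 had 3 counts at the 4-cell stage and 44 at the late 2-cell stage (ratio 0.0502, counting interval 0.00997 to 0.157). The median of all genes at this step was -0.40, and -0.65 when libraries were scaled with DESeq2 size factors, and the median of the 31 members was -0.12. Without 1 library the calls of Slc38a6 (1.34 without late 2-cell replicate 1), Slc38a8 (-0.95 without 4-cell replicate 1, -1.33 without late 2-cell replicate 2), Slc7a14 (1.60 without 4-cell replicate 2, 1.67 without late 2-cell replicate 2) and Slc7a8 (-2.57 without 4-cell replicate 2, -3.74 and -3.92 without late 2-cell replicates 1 and 2) were lost.

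Between the 4-cell and early 8-cell controls edgeR called 0 of the 31 members, against 1.13% of all genes. At an unadjusted p under 0.05 there were 5, and DESeq2 and limma called 1 each. This step crosses a seam in the deposited table. In all, 7 symbols were at 0 in every early and late 8-cell library and above 1 CPM in every earlier one, and 11 symbols were the other way round. None was a member, and for 16 members the ratio of counts to FPKM, taken relative to Slc3a2, differed between the earlier and the 8-cell libraries by at most 0.238%.

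Between the early and late 8-cell controls 7 members were called (6 higher and 1 lower at the late stage), against 26.2% of all genes (15.0% higher, 11.2% lower). The lysosomal arginine sensor Slc38a9 had 17.1 and 27.0 CPM at the late stage and 2.26 and 3.23 CPM at the early stage (3.0 ± 0.52, adjusted p = 0.000472). The heavy chain Slc3a2 had 282 and 312 CPM against 146 and 129 CPM (1.11 ± 0.20, adjusted p = 0.000599), so both late libraries lay above both early ones. The glutamine carrier Slc38a1 had 26.2 and 28.9 CPM against 5.41 and 5.29 CPM (2.36 ± 0.80, adjusted p = 0.0360), and Slc1a1 had 493 and 547 CPM against 359 and 260 CPM (0.75 ± 0.27, adjusted p = 0.0478). Slc7a5, the large neutral amino acid light chain, had 9.50 and 4.74 CPM against 17.9 and 23.3 CPM (-1.53 ± 0.37, adjusted p = 0.00555). Slc38a8 rose by 1.48, and Slc7a3 had 77 counts at the late and 2 at the early stage (ratio 21.8, counting interval 5.84 to 183). The calls of Slc38a9 and Slc3a2 held without any 1 library. Those of Slc38a1 (2.30 to 2.43) and Slc38a8 (1.44 to 1.54) were lost without each of the 4 in turn, that of Slc1a1 without early replicate 2 (0.53) or late replicate 1 or 2 (0.82 and 0.68), that of Slc7a3 without early replicate 2 (3.33) or late replicate 2 (3.70), and that of Slc7a5 without late replicate 2 (-1.11). With DESeq2 size factors the Slc1a1 call was also lost (0.69).

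The series asks what P300 siRNA changes in the embryo, and among the transporters the first calls were at the 4-cell stage. At the late 2-cell stage edgeR called 0 of 31 members, against 0.00602% of all genes (1 gene), with 2 members at an unadjusted p under 0.05 and 0 called by DESeq2 or limma. At the 4-cell stage 7 members were called (3 higher and 4 lower in siRNA embryos), against 15.0% of all genes (7.77% higher, 7.25% lower). In early 8-cell embryos 7 were called (4 higher, 3 lower), against 16.5% (8.21% higher, 8.30% lower). By the late 8-cell stage 11 were called (6 higher, 5 lower), against 28.0% (13.6% higher, 14.3% lower). The median log2 fold changes of the 31 members at the 4 stages were 0.12, 0.30, 0.19 and 0.24, and those of all genes tested -0.04, 0.00, 0.04 and 0.06. The late 8-cell median of all genes was 0.20 with DESeq2 size factors, and 58.4% of the calls were then higher in siRNA embryos, against 48.8% with TMM. With only the libraries compared in the fit 1 member was called at the 4-cell stage, and limma on FPKM called 3 there and 1 at the early 8-cell stage.

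**Figure D1:**
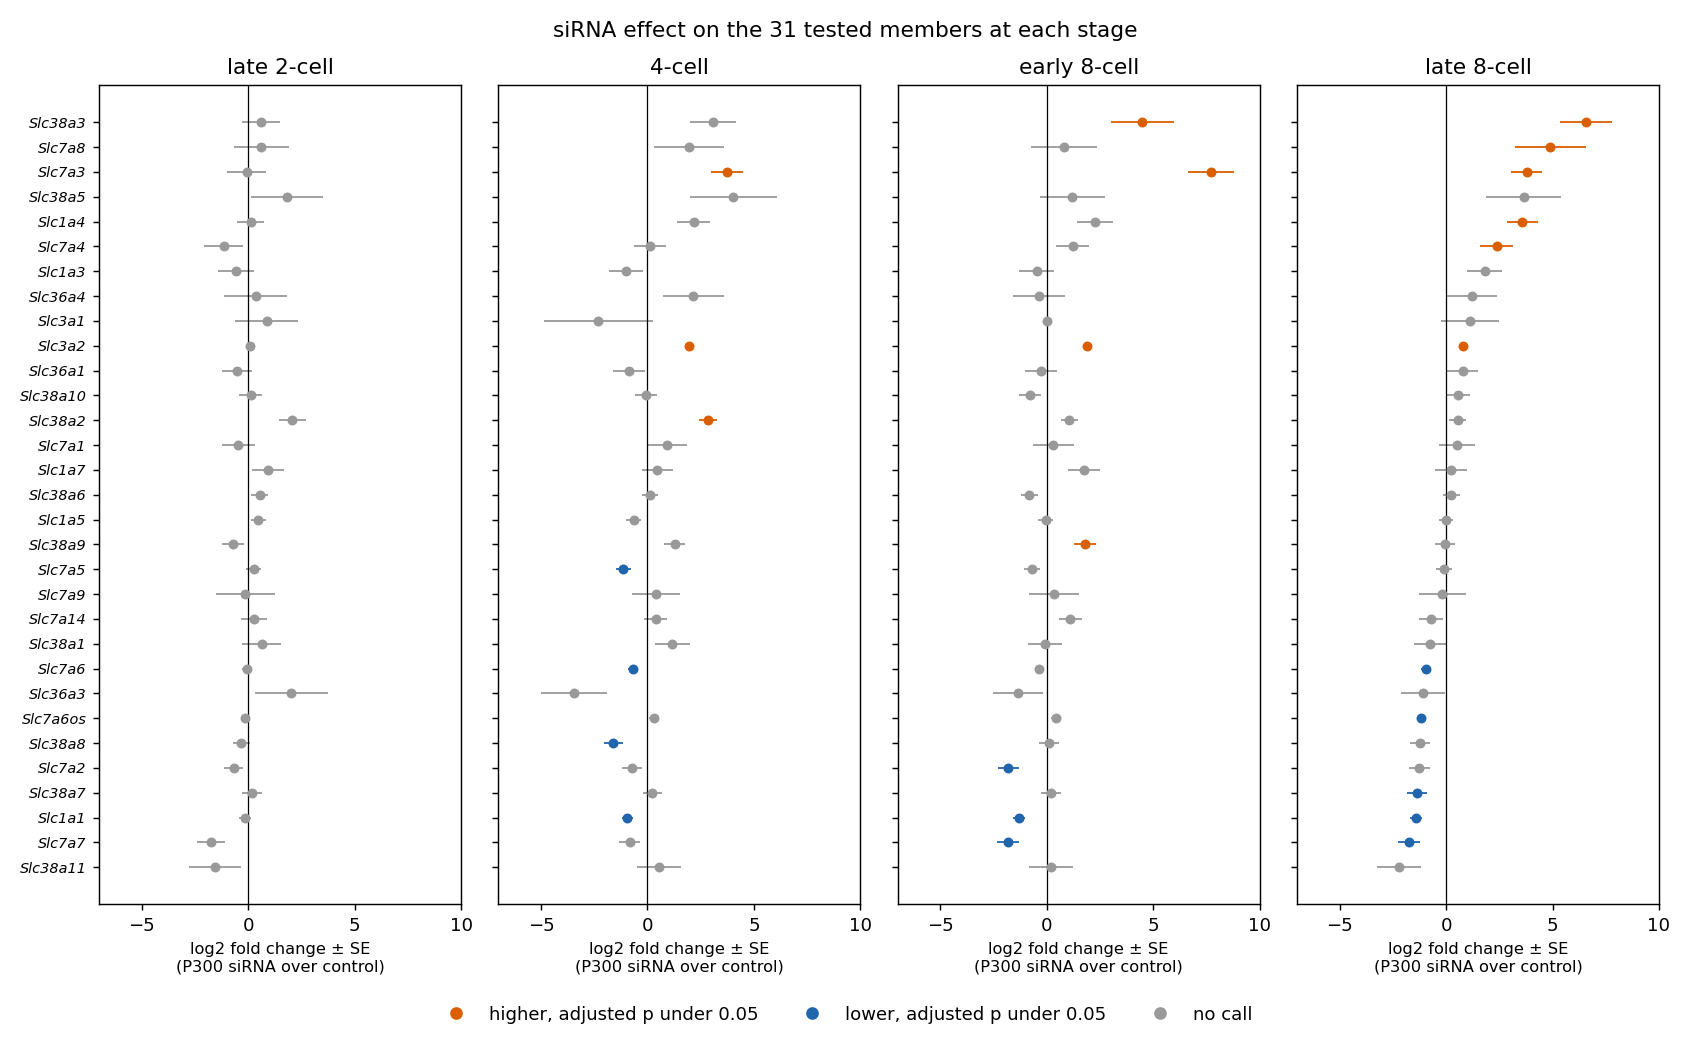
Log2 fold change ± SE of P300 siRNA over control for the 31 tested members (rows, ordered by the late 8-cell value) at the 4 stages (panels), with called members in colour. No member is coloured at the late 2-cell stage and 11 are at the late 8-cell stage. Fold changes of members with few or no counts in a group depend on the fitting's prior count.

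The heavy chain Slc3a2 was the member with the highest count level that rose, and it did so at the 3 later stages. At the late 2-cell stage it had 207 and 221 CPM in siRNA embryos and 199 and 200 CPM in controls, a difference of 0.10 ± 0.20 (adjusted p = 1). At the 4-cell stage it had 359 and 515 CPM in siRNA embryos and 101 and 126 CPM in controls (1.95 ± 0.20, adjusted p = 2.2e-05). In the early 8-cell groups it had 535 and 499 CPM against 146 and 129 CPM (1.91 ± 0.20, adjusted p = 1.4e-05). In both comparisons the lower siRNA library was above the higher control by more than the replicates differed, and the call held without any 1 library. In late 8-cell embryos Slc3a2 had 458 and 563 CPM in siRNA embryos and 282 and 312 CPM in controls (0.78 ± 0.20, adjusted p = 0.00714). The groups again did not overlap, but the call was lost without control replicate 1 (0.71) or siRNA replicate 2 (0.62). The other heavy chain, Slc3a1, had at most 1.06 CPM in any library and was not called at any stage.

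**Figure D2:**
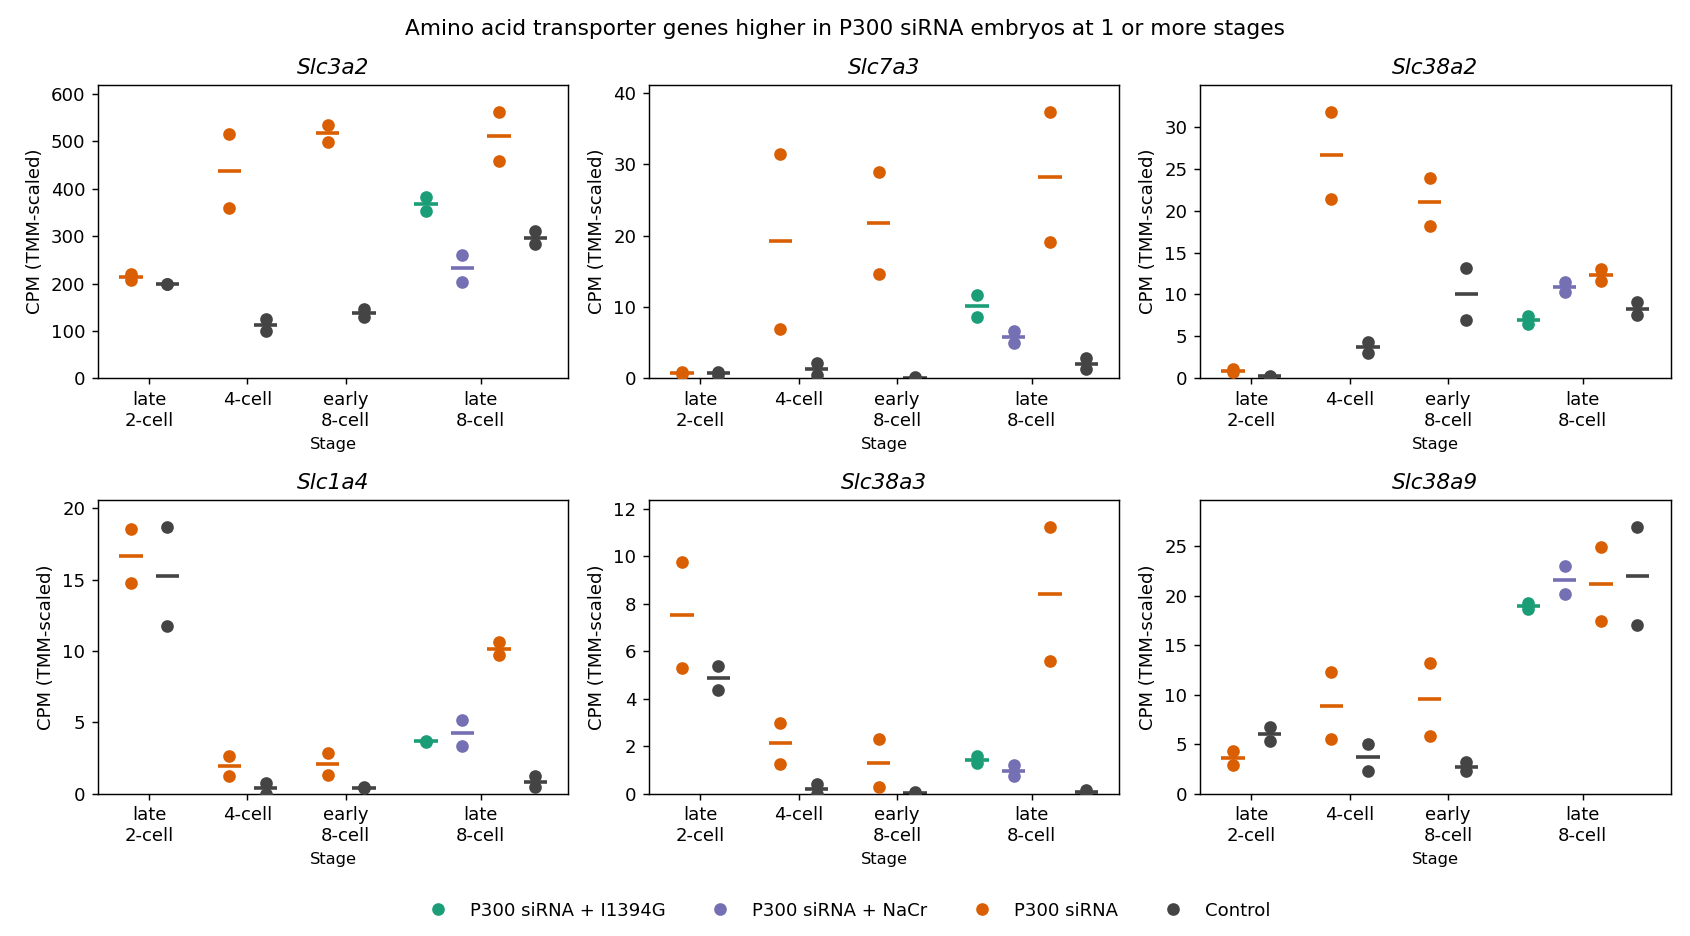
CPM of 6 members that were called higher in P300 siRNA embryos at 1 or more stages, by stage (points are libraries, bars are means of 2 libraries, linear axes from 0). Slc3a2 stands between 359 and 563 CPM in siRNA embryos from the 4-cell stage on and between 101 and 312 CPM in controls.

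Of the light chains that pair with Slc3a2, Slc7a5, Slc7a6 and Slc7a7 fell in siRNA embryos at 1 or more stages, and Slc7a8 rose at the late 8-cell stage from a level near 0. Slc7a6 had 86.5 and 90.4 CPM in 4-cell siRNA embryos and 119 and 163 CPM in controls (-0.67 ± 0.22, adjusted p = 0.0496). Among early 8-cell embryos it had 120 and 86.3 CPM in siRNA embryos and 147 and 115 CPM in controls, which overlap. In the late 8-cell groups it had 84.2 and 99.4 CPM against 185 and 175 CPM (-0.97 ± 0.22, adjusted p = 0.00425), where the groups lay far apart. Slc7a7, the related exchanger, had 2.96 and 4.59 CPM against 15.8 and 11.0 CPM at the early 8-cell stage (-1.83 ± 0.51, adjusted p = 0.0192) and 2.92 and 5.76 CPM against 16.6 and 14.0 CPM in late 8-cell embryos (-1.75 ± 0.50, adjusted p = 0.0156). Its exons share 232 of 3315 bases with Oxa1l on the opposite strand in GENCODE vM21, and reads of the pair may be mixed, since no source used here says that counting was stranded. Slc7a5 had 10.7 and 12.6 CPM in 4-cell siRNA embryos and 20.9 and 30.3 CPM in controls (-1.13 ± 0.37, adjusted p = 0.0450). Slc7a8 stood at 64 counts in late 8-cell siRNA embryos and 2 in controls, a ratio of 42.6 with a counting interval of 11.3 to 359, at levels of 1.06 and 2.45 CPM in the siRNA libraries.

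Of these light chain calls, that of Slc7a6 at the late 8-cell stage held without any 1 library but was lost in limma on FPKM (-0.48). Also lost there were the 4-cell calls of Slc7a5 and Slc7a6 (-0.76 and -0.45) and the late 8-cell call of Slc7a7 (-1.05). That fit held the FPKM column that did not match its counts, and the column's part in these losses was not tested. The 4-cell calls of Slc7a6 were lost without control replicate 2 (-0.43) or siRNA replicate 1 or 2 (-0.64 and -0.71), and those of Slc7a5 without the same libraries (-0.83, -1.02 and -1.26), and both were lost with a replicate block (-0.67 and -1.13). Slc7a7 lost its call without control replicate 1 or siRNA replicate 1 at the early 8-cell stage (-1.56 and -1.54), and without control replicate 1 or 2 or siRNA replicate 1 at the late 8-cell stage (-1.63, -1.89 and -1.41). Slc7a8 lost it without control replicate 1 or 2 or siRNA replicate 2 (7.59, 4.03 and 4.1, fitted values that depend on the prior count at such low counts).

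**Figure D3:**
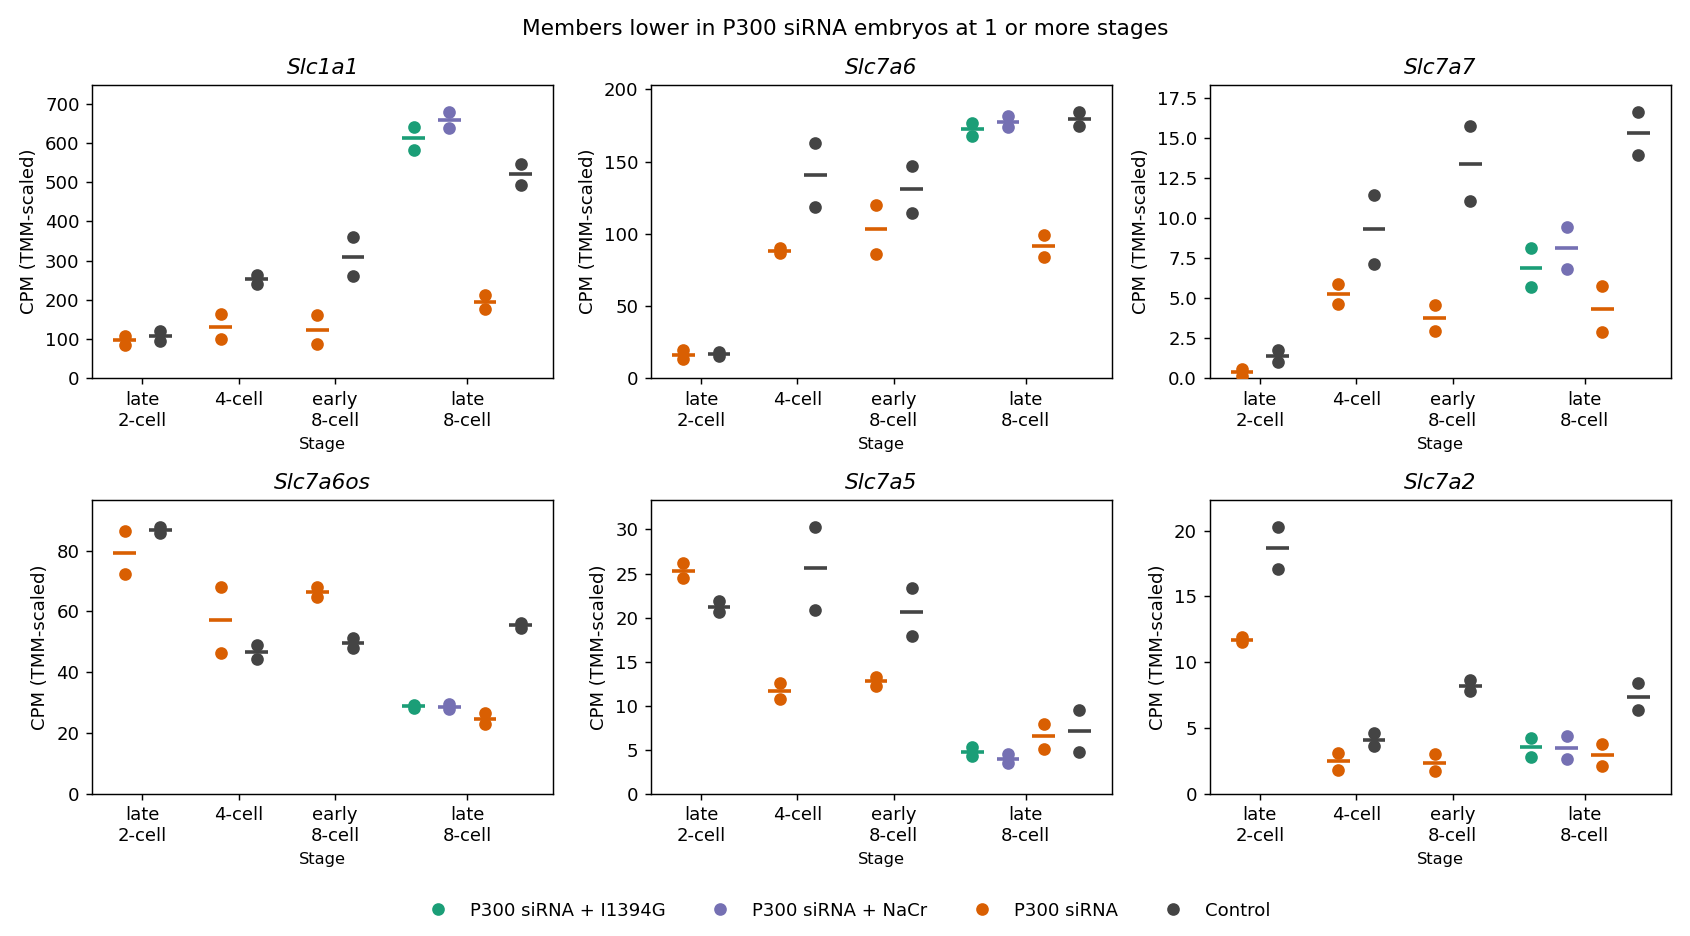
CPM of 6 members that were called lower in P300 siRNA embryos at 1 or more stages, by stage (points are libraries, bars are means of 2 libraries, linear axes from 0). Late 8-cell siRNA libraries hold Slc7a6 at 84.2 and 99.4 CPM, and the I1394G, NaCr and control libraries lie between 168 and 185 CPM.

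Per unit of length, Slc3a2 outweighed the light chains summed here in siRNA embryos at every stage. The summed FPKM of Slc7a5, Slc7a6, Slc7a7, Slc7a8 and Slc7a10 was set against that of Slc3a2 in each library. The light chain Slc7a11, left out of the members, is not in the sum, so the ratio is to a part of the light chains. At the late 2-cell stage the heavy chain stood at 6.49 and 5.96 times the light chains in siRNA embryos and at 6.10 and 6.40 times in controls. At the 4-cell stage the ratio was 4.97 and 6.95 in siRNA embryos and 0.937 and 0.907 in controls. By the early 8-cell stage it was 5.81 and 7.01 in siRNA embryos and 1.14 in the control with a usable column. Among late 8-cell embryos it was 3.07 and 2.91 in I1394G embryos, 1.61 and 2.04 in NaCr embryos, 7.33 and 7.09 in siRNA embryos and 1.93 and 2.35 in controls. The groups overlapped at the late 2-cell stage, and every siRNA library of the later stages lay above every control library of those stages. With 2 libraries against 2 an exact two-sided permutation test of such a ratio cannot go under p = 0.333, and none was made. Both terms moved. At the 4-cell stage the light chains summed to 24.4 and 26.0 FPKM in siRNA embryos and 31.4 and 43.5 FPKM in controls. Slc3a2 stood at 121 and 181 FPKM against 29.4 and 39.5 FPKM there. Early 8-cell light chains summed to 32.6 and 25.5 FPKM against 37.5 FPKM, with Slc3a2 at 189 and 179 FPKM against 42.7 FPKM. The light chains summed to 24.8 and 32.4 FPKM in late 8-cell siRNA embryos and to 42.4 and 38.3 FPKM in controls. Slc3a2 stood at 182 and 230 FPKM against 81.9 and 89.9 FPKM there. In late 2-cell siRNA embryos the light chain sum was 13.8 and 15.2 FPKM. These levels lack the TMM scaling of the CPM values, in which Slc3a2 differed less at the late 8-cell stage (means of 510 and 297 CPM). Such scaling leaves the ratio within a library as it is. Slc3a2 made up 53.6% and 56.4% of all member FPKM in late 8-cell siRNA embryos and 27.5% and 28.6% in controls.

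**Figure D4:**
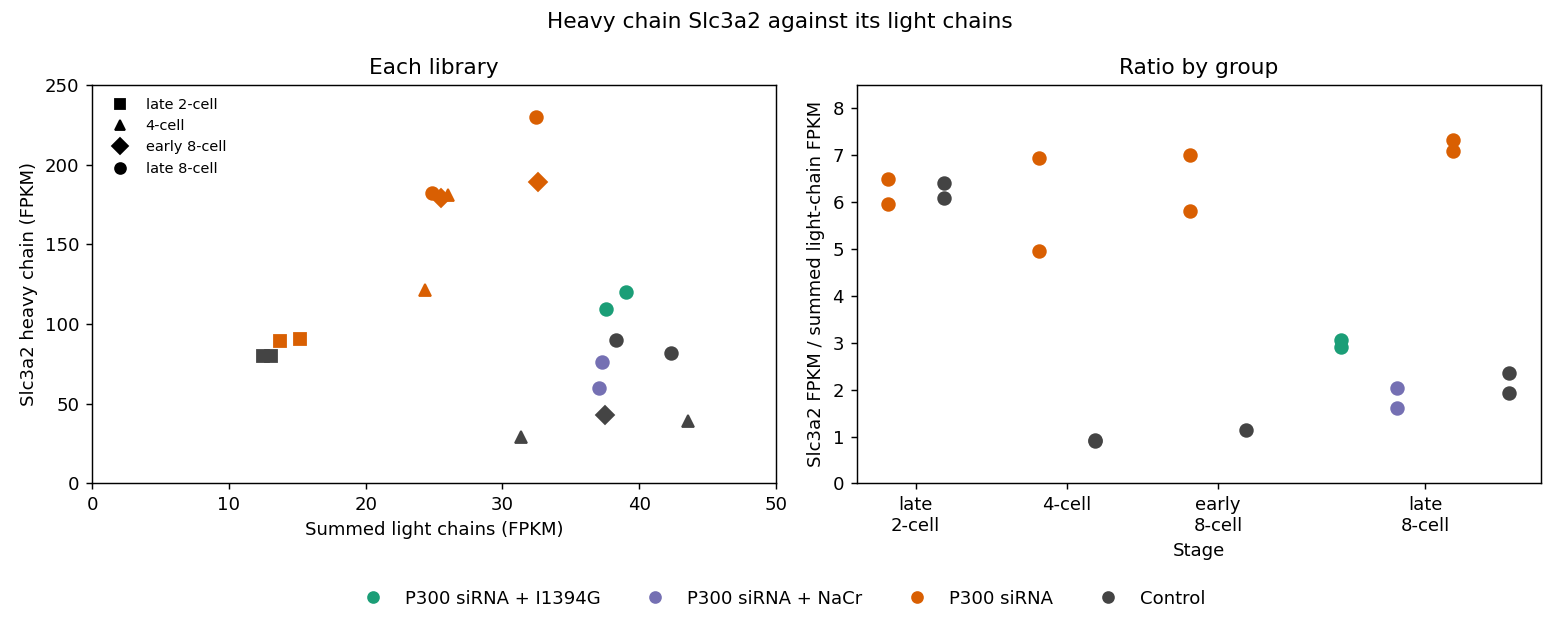
Left, FPKM of the heavy chain Slc3a2 against the summed FPKM of the light chains Slc7a5, Slc7a6, Slc7a7, Slc7a8 and Slc7a10 in each library. The light chain Slc7a11 is not in the sum. Right, the ratio of both by stage and group. P300 siRNA libraries stand between 4.97 and 7.33 over all 4 stages. Controls stand at 6.10 and 6.40 at the late 2-cell stage and between 0.907 and 2.35 from the 4-cell stage on.

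Among the cationic amino acid carriers, Slc7a3 was higher in siRNA embryos at the 3 later stages. At the late 2-cell stage it had 0.875 and 0.608 CPM in siRNA embryos and 0.955 and 0.522 CPM in controls. At the 4-cell stage it had 6.97 and 31.5 CPM in siRNA embryos and 0.516 and 2.2 CPM in controls (3.73 ± 0.75, adjusted p = 0.00350). The siRNA libraries lay above the controls but differed widely from each other, and without siRNA replicate 2 the call was lost (2.25). In early 8-cell embryos it had 14.6 and 28.9 CPM against 0.197 and 0 CPM, and since the controls held 2 counts in all, the change is given as a ratio of 221 with a counting interval of 60.9 to 1830 (adjusted p = 0.000118), a call that held without any 1 library. By the late 8-cell stage it had 19.1 and 37.4 CPM against 1.33 and 2.81 CPM (3.78 ± 0.74, adjusted p = 0.00119), a call that held without any 1 library. Slc7a4, a relative for which transport of cationic amino acids has not been shown, rose by 2.38 at the late 8-cell stage, with 9.29 and 8.17 CPM against 2.05 and 1.27 CPM, but lost its call without each of the 4 libraries in turn (2.07 to 2.76). Its exons share 554 of 4153 bases with P2rx6 on the opposite strand, which had 1 and 25 counts in late 8-cell siRNA embryos and 0 and 0 in controls, and the part of such reads was not tested. Slc7a2 fell by 1.80 at the early 8-cell stage, with 1.74 and 2.98 CPM against 7.78 and 8.61 CPM, and lost its call without control replicate 2 (-1.73) or siRNA replicate 1 (-1.45). Slc7a1 was not called at any stage and stood at or under 2.38 CPM in all libraries from the 4-cell stage on. Slc7a15, below the filter and not tested, had 18 and 25 counts in late 8-cell controls and 0 and 0 in siRNA embryos. It had 0 and 1 counts in I1394G embryos and 4 and 1 counts in NaCr embryos.

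Slc1a1, the transporter of glutamate and aspartate, was lower in siRNA embryos at the 3 later stages. At the late 2-cell stage it had 85.4 and 108 CPM in siRNA embryos and 94.1 and 121 CPM in controls, which overlap. At the 4-cell stage it had 163 and 99.3 CPM against 241 and 264 CPM (-0.95 ± 0.27, adjusted p = 0.0265). In the early 8-cell groups it had 162 and 86.9 CPM against 359 and 260 CPM (-1.32 ± 0.27, adjusted p = 0.00314). In late 8-cell embryos it had 212 and 177 CPM against 493 and 547 CPM (-1.42 ± 0.27, adjusted p = 0.00107). From the 4-cell stage on no siRNA library reached a control library of its stage. The late 8-cell call held without any 1 library, the 4-cell call was lost without control replicate 2 (-0.88) or siRNA replicate 2 (-0.63), and the early 8-cell call without siRNA replicate 2 (-0.94). In limma on FPKM, fitted with the column that did not match its counts, the 4-cell and late 8-cell calls were lost (-0.78 and -0.93). The early 8-cell call was kept without that column (-1.29) and lost with it (-0.44). In GENCODE vM21 the exons of Slc1a1 share 2631 of 8257 bases with 4430402I18Rik on the opposite strand, a gene listed at 0 to 36 counts per library.

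Slc1a4, the carrier of alanine, serine and cysteine, went the other way at the late 8-cell stage. Its promoter holds a CARE match, as does that of Slc7a7, which fell, and a link to the motif was not tested. It had 10.6 and 9.72 CPM in siRNA embryos and 0.462 and 1.21 CPM in controls (3.59 ± 0.74, adjusted p = 0.00174), and the call held without any 1 library. At the 4-cell stage it had 1.26 and 2.62 CPM against 0 and 0.733 CPM, and at the early 8-cell stage 1.30 and 2.87 CPM against 0.394 and 0.449 CPM, with no call at either. The related glutamine carrier Slc1a5 was not called at any stage and had 19.1 and 19.2 CPM in late 8-cell siRNA embryos and 22.9 and 15.4 CPM in controls. Slc1a7, known from the retina, had 21.1 and 26.1 CPM in early 8-cell siRNA embryos and 4.82 and 9.06 CPM in controls, with no call. Slc1a3 was not called at any stage, at 0.396 to 7.97 CPM over all libraries.

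In the Slc38 family Slc38a2, Slc38a3 and Slc38a9 rose and Slc38a7 and Slc38a8 fell, each at 1 or more stages. Slc38a2 had 31.8 and 21.4 CPM in 4-cell siRNA embryos and 4.34 and 3.07 CPM in controls (2.85 ± 0.42, adjusted p = 0.000396), and the call held without any 1 library. Among early 8-cell embryos it had 23.8 and 18.1 CPM against 13.2 and 7.0 CPM, and at the late 8-cell stage 13 and 11.6 CPM against 9.09 and 7.50 CPM, with no call at either. Its late 2-cell levels were 0.730 and 1.13 CPM in siRNA embryos against 0.147 and 0.313 CPM in controls, also without a call. Slc38a3, a system N carrier of glutamine, had 23 counts in early 8-cell siRNA embryos and 1 in controls (ratio 24.2, counting interval 3.94 to 999), and 296 counts in late 8-cell siRNA embryos and 3 in controls (ratio 131, counting interval 44.5 to 641). Its late 8-cell levels were 5.58 and 11.2 CPM against 0 and 0.165 CPM, and this call held without any 1 library. The early 8-cell call was lost without control replicate 1 or 2 or siRNA replicate 2 (3.65, 7.11 and 2.27). These fitted values depend on the prior count at such low counts. The arginine sensor Slc38a9 rose by 1.80 at the early 8-cell stage, with 13.2 and 5.85 CPM against 2.26 and 3.23 CPM, a call lost without control replicate 1 or 2 or siRNA replicate 1 (1.55, 2.07 and 1.09). In the late 8-cell groups it had 25.0 and 17.4 CPM in siRNA embryos and 17.1 and 27.0 CPM in controls, which overlap.

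Slc38a7, a lysosomal exporter of glutamine, had 5.58 and 6.70 CPM in late 8-cell siRNA embryos and 14.8 and 16.9 CPM in controls (-1.35 ± 0.47, adjusted p = 0.0393). This call was lost without each of the 4 libraries in turn (-1.51 to -1.25), with DESeq2 size factors (-1.22) and in limma on FPKM (-0.67). Slc38a8 fell by 1.61 at the 4-cell stage, with 1.95 and 2.01 CPM against 4.13 and 7.88 CPM, and lost its call without control replicate 2 (-1.05) or siRNA replicate 1 or 2 (-1.59 and -1.63). Slc38a1, Slc38a5, Slc38a6, Slc38a10 and Slc38a11 were not called in siRNA embryos at any stage. Slc38a1 reached 14.9 and 17.3 CPM in late 8-cell siRNA embryos and 26.2 and 28.9 CPM in controls, and Slc38a6 10.9 and 12.9 CPM against 8.63 and 11.6 CPM. None of the 3 tested Slc36 genes was called in siRNA embryos. Slc36a1 had 0.660 to 6.69 CPM over all libraries, Slc36a4 7.17 and 5.27 CPM in late 8-cell siRNA embryos and 2.46 and 2.81 CPM in controls, and Slc36a3 0.531 and 1.47 CPM against 2.31 and 2.32 CPM.

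Slc7a6os, the neighbour of Slc7a6, is not a transporter, and its yeast relative Iwr1 takes part in bringing RNA polymerase II into the nucleus. In GENCODE vM21 it shares no exon bases with Slc7a6. It had 72.4 and 86.4 CPM in late 2-cell siRNA embryos and 85.9 and 87.8 CPM in controls, and 46.3 and 68.2 CPM against 49.0 and 44.2 CPM at the 4-cell stage, and the groups overlapped at both stages. By the early 8-cell stage it had 68.2 and 64.8 CPM in siRNA embryos and 51.2 and 47.8 CPM in controls, a difference of 0.43 ± 0.21 without a call. Among late 8-cell embryos it was lower instead, with 22.8 and 26.6 CPM against 56.3 and 54.6 CPM (-1.15 ± 0.22, adjusted p = 0.000963), and the call held without any 1 library.

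A joint test of whether the siRNA effect differed among the 4 stages called 5 of the 31 members, against 16.3% of all genes. They were Slc3a2 (adjusted p = 0.000951), with its smaller rise at the late 8-cell stage, Slc7a6os (adjusted p = 0.00751), Slc7a3 (adjusted p = 0.0105), Slc38a2 (adjusted p = 0.0346) and Slc38a3 (adjusted p = 0.0466). Slc1a1 (adjusted p = 0.0749), Slc1a4 (adjusted p = 0.0755) and Slc38a9 (adjusted p = 0.0503) did not pass. The calls of Slc3a2 and Slc7a6os held without any 1 library. That of Slc7a3 was lost without late 2-cell control replicate 1 (F = 5.95), while Slc38a2 and Slc38a3 lost theirs without any 1 of the 4 late 8-cell libraries. Slc38a2 also lost it without late 2-cell control replicate 1 or siRNA replicate 1 or 2, or 4-cell control replicate 2 or siRNA replicate 1 (F of 4.03 to 6.15 over all these), and Slc38a3 without any of the 4 late 2-cell libraries (F of 3.46 to 5.98 over all these).

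The treated embryos of the late 8-cell stage show which of these changes differed when I1394G or NaCr came with the siRNA. Against siRNA embryos, 2 members were called with I1394G (both higher, against 10.8% of all genes called, 6.19% higher and 4.58% lower) and 5 with NaCr (2 higher and 3 lower, against 15.3%, with 8.77% higher and 6.57% lower). The comparisons share the siRNA libraries with each other and with siRNA against control. The medians of the 31 members were -0.43 with I1394G and -0.70 with NaCr, beside -0.07 and -0.13 over all genes. With DESeq2 size factors the share of all calls that were higher was 45.3% for I1394G and 48.0% for NaCr, against 57.5% and 57.2% with TMM, and no called member turned its direction.

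Of the 5 members called lower in late 8-cell siRNA embryos, Slc1a1 and Slc7a6 were called higher in both treated groups. Slc1a1 had 582 and 642 CPM in I1394G embryos, 639 and 680 CPM in NaCr embryos and 212 and 177 CPM in siRNA embryos. The log2 fold change over siRNA was 1.66 ± 0.28 for I1394G (adjusted p = 0.00157) and 1.76 ± 0.28 for NaCr (adjusted p = 0.000539), and both calls held without any 1 library. All 4 treated libraries also lay above both controls, at 493 and 547 CPM, by 0.23 ± 0.27 and 0.34 ± 0.27 without a call. Slc7a6 had 177 and 168 CPM in I1394G embryos, 174 and 181 CPM in NaCr embryos and 84.2 and 99.4 CPM in siRNA embryos. It rose by 0.90 ± 0.22 with I1394G (adjusted p = 0.0153) and by 0.95 ± 0.22 with NaCr (adjusted p = 0.00833), and its treated libraries overlapped with the controls. The I1394G call of Slc7a6 was lost without siRNA replicate 1 (0.80) or I1394G replicate 1 or 2 (0.88 and 0.95), and the NaCr call without siRNA replicate 1 (0.85) or NaCr replicate 2 (0.93). In limma on FPKM both Slc7a6 calls were lost (0.52 and 0.48), as was the I1394G call of Slc1a1 (1.27). Slc7a7 had 5.67 and 8.14 CPM in I1394G embryos, 9.44 and 6.84 CPM in NaCr embryos and 16.6 and 14.0 CPM in controls. Slc38a7 had 8.73 and 8.28 CPM in I1394G embryos, 7.92 and 7.46 CPM in NaCr embryos and 14.8 and 16.9 CPM in controls. Every treated library of these genes lay below both controls, without a call against siRNA embryos or controls.

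Of the members that rose in late 8-cell siRNA embryos, Slc3a2, Slc7a3 and Slc38a3 fell with NaCr, and none passed with I1394G. Slc3a2 had 383 and 354 CPM in I1394G embryos, 204 and 260 CPM in NaCr embryos and 458 and 563 CPM in siRNA embryos. It fell by 1.14 on the log2 scale with NaCr (SE 0.20, adjusted p = 0.00106), a call that held without any 1 library, and stood at -0.47 ± 0.20 with I1394G (adjusted p = 0.127). With the DESeq2 Wald test the I1394G difference passed too (-0.57). Slc3a2 was the one member at an unadjusted p under 0.05 between the treated groups (0.67 ± 0.20, I1394G over NaCr, adjusted p = 1), and in that comparison edgeR called 0 of 31 members, against 0% of all genes. DESeq2 and limma also called 0 members. Slc7a3 had 6.60 and 4.97 CPM in NaCr embryos and 19.1 and 37.4 CPM in siRNA embryos (-2.29 ± 0.69, adjusted p = 0.0316), and lost its call without siRNA replicate 2 (-1.70) or NaCr replicate 1 or 2 (-2.52 and -2.10). In I1394G embryos it had 11.6 and 8.67 CPM (-1.49 ± 0.66, adjusted p = 0.154). Slc38a3 fell by 3.10 with NaCr, with 1.19 and 0.746 CPM against 5.58 and 11.2 CPM, and lost its call without each of the 4 libraries (-3.50 to -2.48) and with a replicate block (-2.90). In I1394G embryos it was nearly as low, with 1.28 and 1.58 CPM (-2.57 ± 0.94, adjusted p = 0.0851). Slc1a4 had 3.62 and 3.70 CPM in I1394G embryos and 5.15 and 3.36 CPM in NaCr embryos, between the siRNA and the control libraries and without a call.

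Against controls, 1 member was called with I1394G (against 3.17% of all genes, 1.99% higher and 1.18% lower) and 1 with NaCr (against 1.57%, 1.07% higher and 0.500% lower). It was Slc7a6os, lower, in both. It had 29.3 and 28.3 CPM in I1394G embryos, 27.8 and 29.5 CPM in NaCr embryos and 56.3 and 54.6 CPM in controls, a log2 fold change of -0.94 ± 0.21 for I1394G (adjusted p = 0.0225) and -0.95 ± 0.22 for NaCr (adjusted p = 0.0331). All 6 libraries that had the siRNA, treated or not, lay between 22.8 and 29.5 CPM. Against siRNA embryos the treated groups stood at 0.21 ± 0.22 and 0.20 ± 0.22, without a call. Both calls against controls were lost without each of the 4 libraries in turn (-0.97 to -0.91 for I1394G, -1.0 to -0.92 for NaCr) and in limma on FPKM (-0.80 and -0.90). Slc7a3 remained above the controls at 2.29 ± 0.70 with I1394G and 1.49 ± 0.70 with NaCr, and Slc1a4 at 2.12 ± 0.71 and 2.35 ± 0.72, in every library but without a call. The heavy chain Slc3a2 had 383 and 354 CPM in I1394G embryos, above both controls at 282 and 312 CPM. In NaCr embryos it had 204 and 260 CPM, below both controls, and neither difference was called. Slc38a3 stood at 18.1 times the controls with I1394G (counting interval 5.90 to 90.1) and 13 times with NaCr (3.94 to 67.3), and Slc7a4 had 8.17 and 5.85 CPM in I1394G embryos, 3.70 and 5.72 CPM in NaCr embryos and 2.05 and 1.27 CPM in controls, also above them in every library and without a call. With only the libraries compared in the fit, 12 and 8 members were called against controls, and Slc3a2 was among those called with I1394G (0.38). The calls among all genes were then 4031 and 2263, against 527 and 261 in the shared fit, so the increase was not limited to the members.

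Other genes of amino acid supply were taken from 3 lists. Of 11 tested carriers outside these families, 1 rose and 1 fell at the 4-cell stage, 1 and 1 at the early 8-cell stage and 3 and 3 at the late 8-cell stage. The shares of all genes called at these stages, 15.0%, 16.5% and 28.0%, apply to each of the lists, and 2 of 11 at the 4-cell and early 8-cell stages is near that share. The taurine carrier Slc6a6 fell at each of the 3, to 123 CPM in late 8-cell siRNA embryos against 199 CPM in controls (-0.70 ± 0.21, adjusted p = 0.0190), and the glycine carrier Slc6a9 rose at the 4-cell and late 8-cell stages (3.06 against 0.529 CPM at the late 8-cell stage). By the late 8-cell stage Slc6a14, a broad neutral and cationic carrier, had 22.1 CPM against 125 CPM (-2.45 ± 0.52, adjusted p = 0.00223). The falls of Slc6a6 and Slc6a14 do not stand for the list, whose median log2 fold changes at the 4 stages were -0.28, -0.35, 0.69 and 2.07. Of 30 genes of amino acid sensing upstream of mTORC1, 2 rose and 1 fell at the 4-cell and at the early 8-cell stage, fewer than 15.0% and 16.5% of them. At the late 8-cell stage 8 rose and 7 fell, against 28.0% of all genes called, and the median was -0.02. The Rag GTPase Rragd had 20.8 CPM against 200.2 CPM there (-3.26 ± 0.45, adjusted p = 6.9e-05).

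Of 14 genes of the amino acid deprivation response, 1 rose and 1 fell at the 4-cell stage, 2 and 2 at the early 8-cell stage and 1 and 4 at the late 8-cell stage, beside 15.0%, 16.5% and 28.0% of all genes. Asns, the asparagine synthetase, rose at the early 8-cell stage with 98.8 CPM in siRNA embryos against 37.7 CPM in controls (1.39 ± 0.33, adjusted p = 0.00732). In late 8-cell embryos Ddit3, a stress transcription factor, had 56.3 CPM against 6.24 CPM (3.18 ± 0.64, adjusted p = 0.00152), and the enzymes of serine synthesis Phgdh (101 against 456 CPM, -2.17 ± 0.30, adjusted p = 6.3e-05) and Psat1 (-1.22 ± 0.22, adjusted p = 0.000566) fell. Both enzymes rose and Ddit3 fell with I1394G and with NaCr relative to siRNA embryos, the only called genes of the list there. Of the other carriers, 2 rose and 1 fell with I1394G and 0 rose and 2 fell with NaCr, and of the sensing genes 5 rose and 6 fell with each, beside 10.8% of all genes called with I1394G and 15.3% with NaCr. The medians of this list in siRNA embryos were 0.05, 0.05, 0.16 and -0.14 at the 4 stages.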

How the data were processed

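Gene expression was measured by RNA sequencing in 20 libraries of mouse embryos, 2 in each of 10 groups taken from the sample titles. The deposited count table holds raw counts per gene, whole numbers without normalisation, and the deposited FPKM table holds fragments per kilobase, scaled to library size, as the authors computed them. Per the submitters' processing notes the tools were HISAT2 2.2.1, Cufflinks 2.2, cutadapt 4.1 and bcl2fastq 2.20.0.422, with mm9 as build and no settings given, and whether counting used strand is not given in the sources used here. Members and lists were chosen with earlier results of these data known.

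The count tests used edgeR 4.0.16 under R 4.3.3. The default filter by group left 16603 of 25208 genes. Libraries were scaled with TMM factors, from which the CPM values were computed, and all 20 libraries entered 1 fit with a term for each group (residual degrees of freedom 10, prior 7.98). Each contrast had a two-sided quasi-likelihood F test with Benjamini-Hochberg adjustment over all genes tested, and an adjusted p under 0.05 made a call. The SE is the size of the log2 fold change over the square root of F. FPKM served for levels per length and for 1 alternative. Where a group held 1 to 3 counts, a ratio with an exact binomial interval at a confidence level of 0.95 is given instead of a fold, and it covers counting error only. The alternative fits are still given as folds there, which depend on the prior count of the fit. Named with fold, SE and adjusted p were up to 6 called members in each direction per comparison whose libraries were separate and whose higher group reached 10 CPM, and other called members with the fold alone. Replicate numbers do not pair libraries by the labels, and deviations of same-numbered libraries correlated at -0.0617 to 0.225 between the groups compared, so no block was used. Promoters and exons came from RefSeq GRCm38.p6 and GENCODE vM21, matched by symbol for 39 of 39 genes, and no coordinates were taken over to mm9. The alternatives were DESeq2 1.42.0 (size factors within edgeR, and its own test), no filter, limma 3.58.1 on log2(FPKM + 1) with and without the column that did not match its counts, only the libraries compared, a replicate block and leaving out each library, for which the lone library left in a group is assumed to vary like the others. Limma without that column was read only where the early 8-cell controls took part. In the other comparisons the column was part of limma's fit and entered its error.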

Additional observations from a re-analysis of the deposited data

Results flagged for a closer look

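The siRNA effect differed among the stages for 5 of 31 members by the joint edgeR test, close to the share of all genes called (16.3%). For the heavy chain Slc3a2 (adjusted p = 0.000951) the log2 fold changes at the 4 stages, from late 2-cell to late 8-cell, were 0.10, 1.95, 1.91 and 0.78. For Slc7a6os (adjusted p = 0.00751) they were -0.13, 0.30, 0.43 and -1.15, and the late 8-cell value alone was called. For Slc7a3 (adjusted p = 0.0105) the late 2-cell value was not called and the siRNA libraries stood above the controls at the 3 later stages. For Slc38a2 (adjusted p = 0.0346) they were 2.08, 2.85, 1.06 and 0.56, with a call at the 4-cell stage. The late 2-cell value rests on 5 and 13 counts in siRNA embryos and 2 and 3 counts in controls. For Slc38a3 (adjusted p = 0.0466) the calls were at the early and late 8-cell stages, against controls that held 1 and 3 counts. The marker levels and numbers of genes detected given above moved with the groups from the 4-cell stage on, and their part in these differences was not tested.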

How the results depend on the processing

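Leaving out each library in turn, the number of members called in siRNA embryos against controls was 0 to 0 at the late 2-cell, 4 to 8 at the 4-cell, 4 to 5 at the early 8-cell and 6 to 8 at the late 8-cell stage. It was 1 to 3 for I1394G and 2 to 4 for NaCr over siRNA, 0 to 0 for each over control and for I1394G over NaCr, 2 to 9 for the joint stage test, and 11 to 14, 0 to 2 and 2 to 5 for the successive control stages. In limma on FPKM, 3 members were called at the 4-cell and 1 at the early 8-cell stage (4 without the column that did not match its counts), 4 for I1394G over siRNA (all lower, 0 of them called by edgeR), 8 for NaCr over siRNA (4 of them called by edgeR), 0 for each over control, 1 for the early 8-cell over the 4-cell controls and, without that column, 4 for the late over the early 8-cell controls. In that test the calls of Slc38a8 at the 4-cell stage (-0.76) and, with or without the column, of Slc38a3, Slc38a9 and Slc7a2 at the early 8-cell stage were also lost. Slc7a3 reversed between the 8-cell controls only with that column kept (-0.050). Without it the direction was the same as in edgeR (0.68), and the call was lost. With only the libraries compared, 1 member was called at the 4-cell stage, 6 for I1394G over siRNA, 12 for I1394G and 8 for NaCr over control, and 3 in the joint test. DESeq2's own test called 5 for I1394G over siRNA, 4 for I1394G and 2 for NaCr over control and 1 for the early 8-cell over the 4-cell controls. Without a filter these were 4, 4, 3 and 1, and 8 in the joint test. The cause of these changes was not tested. A replicate block gave 5 members at the 4-cell stage and 4 for NaCr over siRNA and left the other counts as they were, with 14 of the 15 members called between the late 2-cell and 4-cell controls shared (Slc36a3 was lost, 3.54). It also ended the 4-cell calls of Slc7a5 and Slc7a6 and the NaCr call of Slc38a3. With 2 libraries in a group, and few counts for many members, small changes could not be seen at this depth.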
